A study of Mus musculus with 6 samples.

Results

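The circadian clock genes Per1, Per2, Per3, Cry1, Cry2, Arntl, Clock, Nr1d1, Nr1d2 and Dbp were followed in mouse pancreatic islet RNA. They were taken from the deposited table by gene name, and all 10 were found among its 54532 genes. RNA-seq had been made from 6 samples of pancreatic islet whose labels name the beta cell, which makes insulin. The 3 control samples carry the genotype wt (wild type), and the 3 others carry the genotype Cko (conditional knockout, called Bcas2 cKO here), described in the design text as a Bcas2 knockdown in beta cells. The BCAS2 protein belongs to the Prp19 splicing complex, and by its title the series concerns alternative splicing and the making and release of insulin. The labels give no promoter or Cre driver, deleted exon, strain, age, sex, light schedule or hour of collection, and do not say whether the libraries came from separate animals. The p-values therefore rest on differences among these libraries, whose spread may be only technical.

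The clock of mammalian cells is a feedback loop of transcription. CLOCK and BMAL1, the product of Arntl, bind E-boxes and activate the Per, Cry, Nr1d and Dbp genes; PER and CRY proteins then inhibit them, and the REV-ERB receptors made from Nr1d1 and Nr1d2 repress Arntl and several of its companions. In tissues with a running clock, Arntl transcripts peak in the opposite part of the day from those of Nr1d1 and Dbp, and islets have such a clock, whose loss in beta cells impairs insulin secretion in mice.

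Reads on genes, recovered from the deposited FPKM (a read count scaled to gene length and library size), came to 15170439 to 15594871 for the controls and 16351800 to 16904326 for Bcas2 cKO. Control libraries are numbered 1, 3 and 4 and Bcas2 cKO libraries 3, 4 and 5, as in the table's columns; no label carries Bcas2 cKO number 5. Bcas2 was 10.3, 15.04 and 11.2 FPKM in the controls, against 8.76, 8.40 and 9.14 FPKM in Bcas2 cKO, without overlap (log2 fold change -0.42, limma adjusted p 0.083; -0.52 and 0.049 when control library 1 was left out). The 10 beta cell markers were all detected and took 20.5 to 28.8% of control reads, against 14.6 to 16.0% of Bcas2 cKO reads. In bulk samples, fewer cells of a type and less RNA per cell cannot be told apart. The 20 acinar markers, for enzymes of the exocrine pancreas around the islets, were each higher in every Bcas2 cKO library than in any control library, and together took 0.648 to 1.58% and 2.10 to 5.92% of reads; with hormone and acinar genes left out of the scaling, Per1 and Cry1 still passed the test described next (log2 fold changes 1.30 and 0.72, limma adjusted p 0.0070 and 0.019). Alpha, delta and PP cell markers took 3.50 to 3.67% of control reads and 4.38 to 4.83% of Bcas2 cKO reads. Macrophage and lymphocyte markers took 0.0115 to 0.0134% and 0.0167 to 0.0221%. By the same test 5 of 8 macrophage and lymphocyte, 7 of 20 acinar, 2 of 6 ductal and 2 of 10 alpha, delta and PP markers rose. Of the beta cell markers 3 of 10 fell, and no endothelial marker was called. Over all genes tested, 6.97% rose, 7.55% fell and 16.8% were higher in Bcas2 cKO without overlap. The part of these cells in the clock gene results was not tested. Ductal markers took 0.0464 to 0.0499% and 0.0967 to 0.120% of reads, and endothelial markers 0.0395 to 0.0484% and 0.0427 to 0.0504%. Cftr (ductal) and Cd3e (T cell) were at 0 in at least 1 library.

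Per1 and Cry1, 2 of the repressors of the loop, rose in Bcas2 cKO, and no clock gene fell. That is 2 of 10 genes called, against 14.5% of the 13723 genes tested over the whole table (6.97% rose and 7.55% fell), so the count is near the background. A call means a Benjamini-Hochberg adjusted p under 0.05 in limma, a linear model across all genes, on log2(FPKM + 1). All 10 clock genes passed the filter of a mean of 1 FPKM. Their median log2 fold change was 0.27, beside -0.03 for all genes tested. Without overlap between the groups were 4 of 10 (Per1, Per2, Cry1 and Cry2), all higher in Bcas2 cKO, against 38.0% of all genes tested, or 16.8% in that direction.

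**Figure D1:**
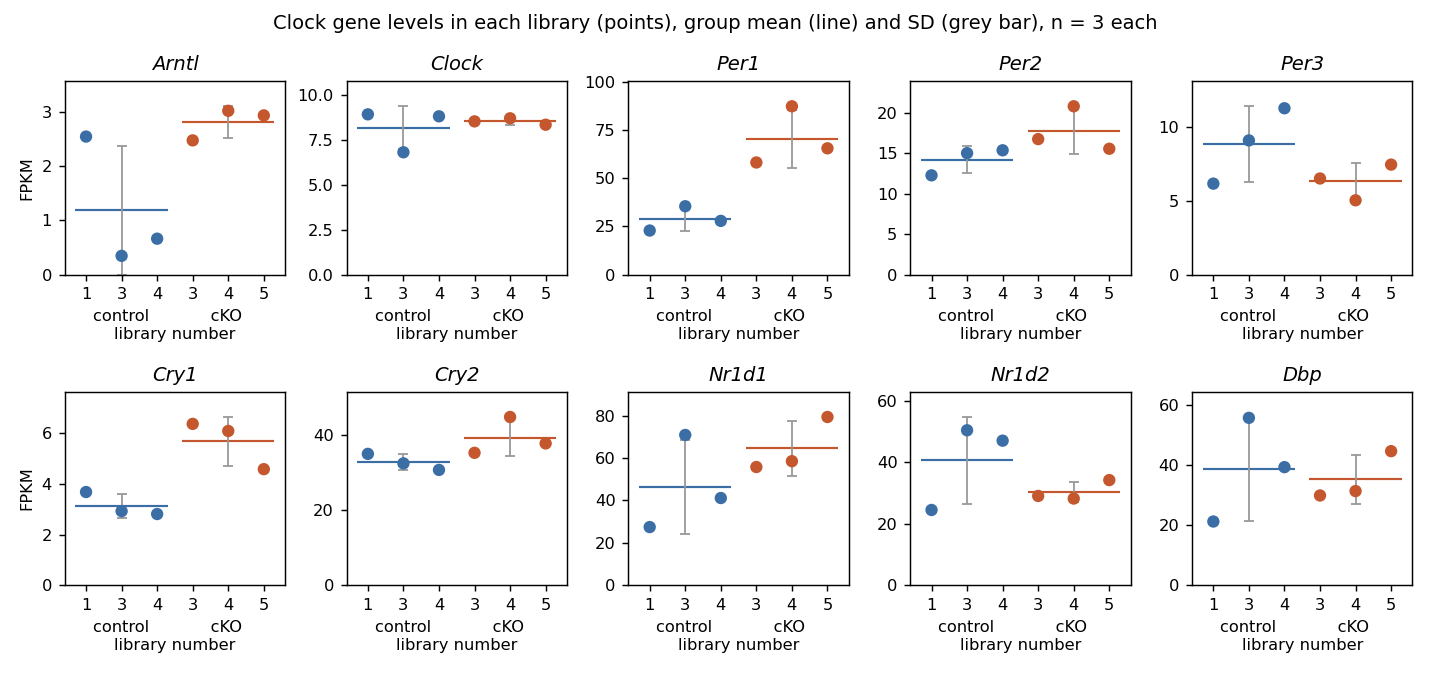
FPKM (y axis, from 0) of the 10 clock genes in control libraries 1, 3 and 4 (blue) and Bcas2 cKO libraries 3, 4 and 5 (orange); points are libraries, lines group means and grey bars 1 SD (n = 3 each). Per1 and Cry1 separate the groups, and Per2 and Cry2 do so narrowly. Arntl is 2.54 FPKM in control library 1 against 0.345 and 0.661 FPKM in control libraries 3 and 4.

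Among the period genes, which encode the PER repressors, Per1 changed most. Per1 (ENSMUSG00000020893, chromosome 11, 69095217 to 69109960, plus strand, GRCm38) is also quickly induced by cAMP signalling and by glucocorticoid. It held 22.8, 35.4 and 27.8 FPKM in control libraries 1, 3 and 4 and 58.1, 87.3 and 65.5 FPKM in Bcas2 cKO libraries 3, 4 and 5. Every Bcas2 cKO library was above every control library, and Bcas2 cKO library 4 was the highest. The means were 28.7 ± 6.34 and 70.3 ± 15.2 FPKM (SD, n = 3 each), a ratio of 2.45. On the log2(FPKM + 1) scale the change was 1.26 (SE 0.20, limma adjusted p 0.010), and the call held without each library in turn (1.10 to 1.42, adjusted p 0.015 to 0.042).

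Per2 (ENSMUSG00000055866, chromosome 1, 91415982 to 91459324) differed less. It held 12.3, 15.004 and 15.4 FPKM in the controls, against 16.7, 20.8 and 15.5 FPKM in Bcas2 cKO, so that the groups did not overlap but lay close, with control library 4 next to Bcas2 cKO library 5. Its log2 fold change of 0.29 (SE 0.13, unadjusted 95% interval -0.02 to 0.61) did not pass the test (limma adjusted p 0.18). With voom on the recovered reads it was 0.46 and passed (adjusted p 0.039), a setting that also raised the median of all genes from -0.03 to 0.11.

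Per3 (ENSMUSG00000028957, chromosome 4, 151003652 to 151044665) was lower rather than higher on average, at 6.17, 9.10 and 11.3 FPKM in the controls, against 6.52, 5.04 and 7.46 FPKM in Bcas2 cKO. Control library 1 fell inside the Bcas2 cKO range and the other control libraries above it. Its log2 fold change was -0.40 (SE 0.21, limma adjusted p 0.24), and -0.62 without control library 1 (adjusted p 0.059). The ratio of Per1 to Per3, both in FPKM, was 3.70, 3.89 and 2.47 in control and 8.92, 17.3 and 8.78 in Bcas2 cKO. Thus the members of this family did not change by the same factor, and control library 1 lay with its own group in this ratio, which was chosen after the values were seen.

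The cryptochromes, the partners of PER in repression, were both higher in Bcas2 cKO. Cry1 (ENSMUSG00000020038, chromosome 10, 85131700 to 85185064) held 3.68, 2.93 and 2.81 FPKM in control, from 195, 132 and 138 reads, and 6.37, 6.09 and 4.58 FPKM in Bcas2 cKO, from 386, 358 and 264 reads. All Bcas2 cKO values were above all control values, with means of 3.14 ± 0.472 and 5.68 ± 0.961 FPKM (SD, n = 3 each; ratio 1.81). Cry1 had a log2 fold change of 0.69 (SE 0.14, limma adjusted p 0.021). Leaving out control library 3 (adjusted p 0.062) or 4 (0.072), or Bcas2 cKO library 3 (0.072) or 4 (0.074), ended the call, and in these fits the fold change stayed between 0.61 and 0.65.

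Cry2 (ENSMUSG00000068742, chromosome 2, 92403646 to 92434043) was far more abundant than Cry1 on the FPKM scale, at 35.1, 32.5 and 30.8 FPKM in the controls, against 35.4, 44.9 and 37.9 FPKM in Bcas2 cKO. Control library 1 almost met Bcas2 cKO library 3. The log2 fold change of 0.25 (SE 0.11, unadjusted 95% interval -0.01 to 0.51) did not pass the test (limma adjusted p 0.17). The antisense transcript D930015M05Rik lies within Cry2 on the other strand and shares 295 exonic bases with it; it was 7.99 ± 2.39 FPKM in the controls and 13.0 ± 1.61 FPKM in the knockout libraries (SD, n = 3 each). No source used here states a strand setting, so reads of the shared bases cannot be told apart.

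The E-box, CACGTG, is the site of CLOCK and BMAL1 in the loop. In windows from 250 bases before to 50 after RefSeq start sites (GRCm38.p6), read on both strands, it occurred in Cry1 and Per1. It occurred in no other of the 9 clock genes with an entry, which had 13 windows together. Per2 had no entry. The E-box was present in 7.15% of all 32851 windows. For Cry2 and Nr1d1 the bases checked after the start site were in no GENCODE M21 transcript of the gene. The matches are shown with the E-box in capitals, 5′ to 3′ on the strand of the gene. Cry1 lies at chr10:85185097-85185126 (minus strand, match from position -60 and outside the annotated gene), and Per1 at chr11:69098771-69098800 (plus strand, match from position -166 of a start site inside the gene, in an intron of the GENCODE M21 annotation). A match is a description of letters and not evidence of binding. E-boxes outside these windows were not searched, and a link between matches and changes in level was not tested.
Cry1 E-box: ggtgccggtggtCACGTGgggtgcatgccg
Per1 E-box: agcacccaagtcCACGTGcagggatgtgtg
The cAMP response element TGACGTCA, read on both strands, was in none of the 13 windows of clock genes and in 1.79% of all windows. At that share an absence from 13 windows says little, and elements outside the windows or with other letters were not searched.

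Arntl and Clock form the activating arm. Arntl (ENSMUSG00000055116, chromosome 7, 113207465 to 113314126) was the scarcest of the 10 genes on the FPKM scale. It held 2.54, 0.345 and 0.661 FPKM in control libraries 1, 3 and 4, from 303, 35 and 73 reads, and 2.47, 3.01 and 2.93 FPKM in Bcas2 cKO, from 337, 399 and 380 reads. Control library 1 lay within the Bcas2 cKO range, and control libraries 3 and 4 were far below it. The highest control value was 7.37 times the lowest, against 1.22 times in Bcas2 cKO.

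The log2 fold change of Arntl was 0.93 (SE 0.34, unadjusted 95% interval 0.13 to 1.73), and it did not pass the test (limma adjusted p 0.11). Without control library 1, whose value lay within the Bcas2 cKO range, the log2 fold change was 1.35 (limma adjusted p 0.0076). Leaving out that library narrows the control spread by construction, so this fit is no independent support. Without control library 3 the log2 fold change was 0.65 (limma adjusted p 0.24). Arntl was called in 1 of the 6 fits with a library left out. The scale understates the change of a gene this low, as the log2 fold change was 1.59 with a pseudocount of 0.1 (adjusted p 0.12) and 1.87 with voom on reads (adjusted p 0.029).

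Clock (ENSMUSG00000029238, chromosome 5, 76209868 to 76304792) held 8.94, 6.82 and 8.83 FPKM in the controls, against 8.54, 8.72 and 8.36 FPKM in Bcas2 cKO. The groups overlapped, with control library 3 below the others. Its log2 fold change was 0.06 (SE 0.11, unadjusted 95% interval -0.19 to 0.31, limma adjusted p 0.74), and -0.05 without control library 3. The level of Clock was 3.52, 19.8 and 13.4 times that of Arntl in control and 3.46, 2.89 and 2.85 times in Bcas2 cKO.

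REV-ERB and ROR receptors compete for the ROR element, whose core is AGGTCA, and Arntl is the classic gene under their control. Read on both strands, AGGTCA or its reverse complement TGACCT was found in windows of Arntl, Clock, Nr1d2 and Per1, and in 16.3% of all windows, none of the matches overlapping an E-box. The Arntl match begins at position 32 after the second RefSeq start site, in an exon, at chr7:113207533-113207556 (plus strand, core in capitals). It is shown because Arntl varied most among the control libraries.
Arntl ROR element core: gcagaaagtAGGTCAgggacggag

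Nr1d1, which encodes the repressor REV-ERB alpha, and Nr1d2, for REV-ERB beta, were among the most abundant clock genes. Nr1d1 (ENSMUSG00000020889, chromosome 11, 98767932 to 98775333) held 27.4, 70.9 and 41.1 FPKM in the controls, against 55.7, 58.5 and 79.3 FPKM in Bcas2 cKO. Control library 3 lay inside the Bcas2 cKO range and control libraries 1 and 4 below it. The log2 fold change was 0.55 (SE 0.32, unadjusted 95% interval -0.22 to 1.32, limma adjusted p 0.29); it was 0.23 without control library 1 and 0.90 without control library 3 (adjusted p 0.57 and 0.062). The neighbouring Thra gene overlaps it on the other strand over 263 exonic bases, 8.55% of the exonic bases of Nr1d1, and was 15.6 ± 1.36 and 16.8 ± 1.47 FPKM (SD, n = 3 each).

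Nr1d2 (ENSMUSG00000021775, chromosome 14, 18204054 to 18239127) held 24.5, 50.4 and 47.02 FPKM in the controls, against 29.04, 28.2 and 34.2 FPKM in Bcas2 cKO. Here control libraries 3 and 4 were above every Bcas2 cKO library and control library 1 was below them all. For Nr1d2 the log2 fold change was -0.34 (SE 0.26, limma adjusted p 0.41). Without control library 1, which lay apart from the other controls, it was -0.66 and passed (limma adjusted p 0.018). Nr1d2 was called in 1 of the 6 fits with a library left out. The ratio of Nr1d1 to Nr1d2 was 1.12, 1.41 and 0.875 in control and 1.92, 2.07 and 2.32 in Bcas2 cKO, so the receptors' genes differed in their proportion in every Bcas2 cKO library, also against control library 1. This ratio was chosen after the values were seen.

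Dbp encodes a PAR bZIP activator of D-box genes and is a direct output of the loop. Dbp (ENSMUSG00000059824, chromosome 7, 45705088 to 45710203) held 21.3, 55.9 and 39.4 FPKM in the controls, against 29.96, 31.4 and 44.7 FPKM in Bcas2 cKO. The control libraries spanned the whole Bcas2 cKO range. The log2 fold change of -0.05 (SE 0.34, unadjusted 95% interval -0.85 to 0.74, limma adjusted p 0.93) had no stable sign: it was -0.42 without control library 1 and 0.26 without control library 3 (adjusted p 0.24 and 0.61). Sphk2 overlaps Dbp on the other strand over 539 exonic bases, 18.01% of those of Dbp, and was 11.4 ± 1.40 and 13.0 ± 3.03 FPKM (SD, n = 3 each).

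The D-box TTATGTAA, which Dbp, Tef and Hlf proteins activate and NFIL3 represses, was found in 0.938% of all windows on either strand. Per3 was the only clock gene with a match among the 9 with an entry, and it had 2, shown with the D-box in capitals. They lie before the gene on the minus strand, at chr4:151044851-151044882 (from position -205) and chr4:151044804-151044835 (from position -158). They are shown since Per3, Dbp and Tef were all higher in control libraries 3 and 4 than in control library 1. So were Per1, Nr1d1 and Nr1d2, which had no match, and Per2, which had no entry. A link between the D-boxes and these levels was not tested.
Per3 first D-box: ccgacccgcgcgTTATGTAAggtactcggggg
Per3 second D-box: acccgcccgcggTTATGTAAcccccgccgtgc

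**Figure D2:**
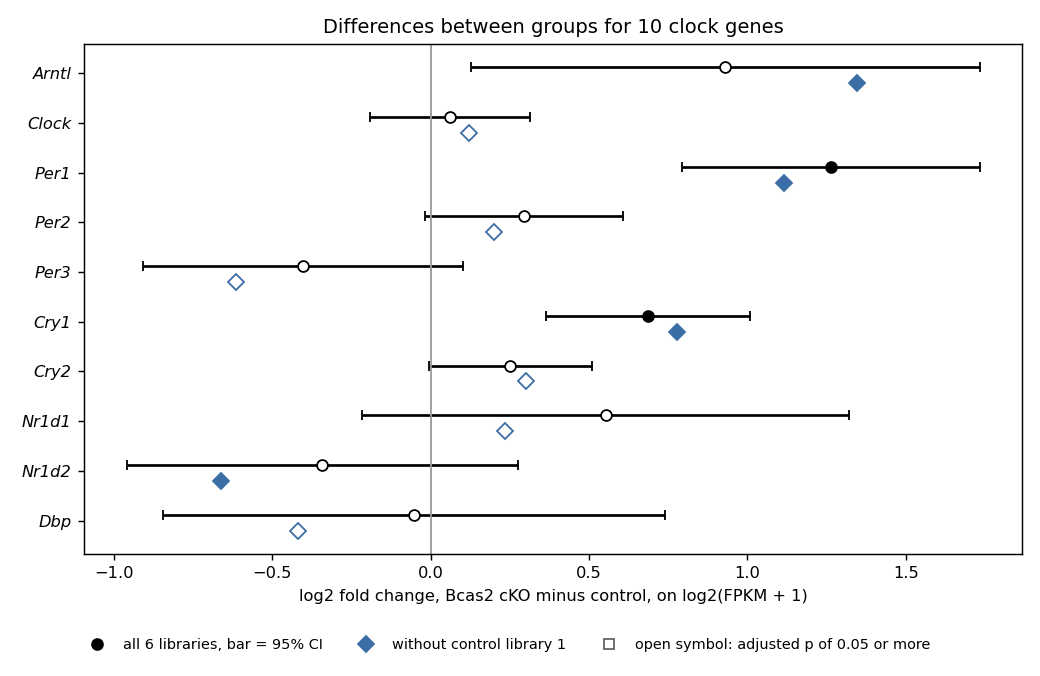
Log2 fold change of Bcas2 cKO minus control on log2(FPKM + 1) (x axis) for the 10 clock genes, with all 6 libraries (circles, bars 95% intervals) and without control library 1 (diamonds); filled symbols passed the adjusted p threshold. Per1 and Cry1 are filled in both fits, and Arntl (1.35) and Nr1d2 (-0.66) are filled only without control library 1. For Arntl and Nr1d2 control library 1 lay apart from the other controls, so leaving it out narrows the control spread.

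The control libraries differed from each other in these genes more than most genes did. The SD of log2(FPKM + 1) over the 3 control libraries was 0.68 for Dbp, 0.67 for Nr1d1, 0.56 for Nr1d2, 0.73 for Arntl and 0.39 for Per3. It exceeded that of 98.1%, 97.3%, 97.0%, 94.9% and 94.7% of the tested genes whose mean FPKM was between 0.5 and 2 times their own. For Cry2 and Cry1 the share was 30.8% and 59.9%. In Bcas2 cKO the SD was smaller for Dbp (0.31), Nr1d1 (0.27), Nr1d2 (0.15), Arntl (0.11) and Per3 (0.25). It exceeded that of 94.0%, 90.0%, 71.9%, 38.0% and 89.7% of genes of like level. The SD was also smaller in Bcas2 cKO for Clock (0.03, above 6.2%) and slightly for Per1 (0.30, above 92.8%). For Per2, Cry1 and Cry2 it was larger than in the controls. These shares describe single genes in 3 libraries and were not tested.

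Among the controls, Arntl varied in the opposite direction from Per3, Nr1d1, Nr1d2 and Dbp, while Cry1 and Cry2 were highest in control library 1, like Arntl. Control libraries 3 and 4 had less Arntl and more Per3, Nr1d1, Nr1d2 and Dbp than control library 1. The ratio of Dbp to Arntl in FPKM, which does not depend on the scaling between libraries and was chosen after the values were seen, was 8.38 in control library 1, 162 in control library 3 and 59.7 in control library 4. In Bcas2 cKO libraries 3, 4 and 5 it was 12.1, 10.4 and 15.3, so that control library 1 lay just below the Bcas2 cKO libraries and the other control libraries well above. The high ratios in control libraries 3 and 4 rest on 35 and 73 reads of Arntl. Control library 1 was nearer to the Bcas2 cKO mean than to the mean of the other control libraries for 5 of 10 clock genes (Arntl, Clock, Per3, Nr1d2 and Dbp), as were 41.0% of all genes tested. Among the other control libraries this held for 3 of 10 clock genes in library 3 and 2 of 10 in library 4 (35.3% and 32.9% of all genes). Bcas2 cKO library 5 was likewise nearer to the control mean than to the mean of the other Bcas2 cKO libraries for 5 of 10. These were Per2, Per3, Clock, Nr1d2 and Dbp, beside 32.0% of all genes. For Bcas2 cKO libraries 3 and 4 the number was 2 and 1 (30.1% and 33.9% of all genes).

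**Figure D3:**
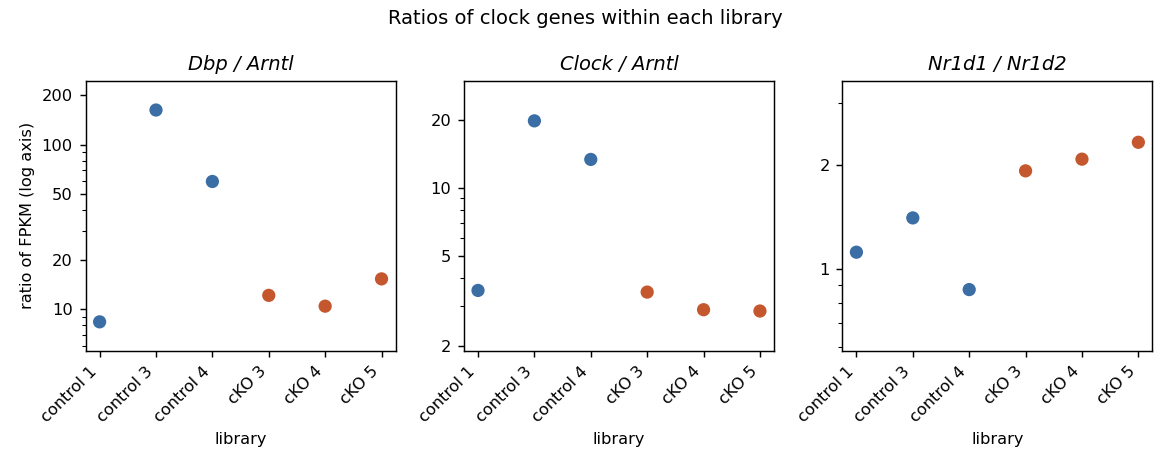
Ratios of FPKM between clock genes within each library (log y axes; blue control, orange Bcas2 cKO). Dbp to Arntl and Clock to Arntl place control library 1 (8.38 and 3.52) beside the Bcas2 cKO libraries, and Nr1d1 to Nr1d2 places all 3 control libraries (0.875 to 1.41) below Bcas2 cKO (1.92 to 2.32). Dbp to Arntl and Clock to Arntl share a denominator, with 35 and 73 reads of Arntl in control libraries 3 and 4.

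Ordered by mean FPKM, the control libraries ran from Nr1d1 (46.5) through Nr1d2 (40.6), Dbp (38.9), Cry2 (32.8), Per1 (28.7), Per2 (14.2), Per3 (8.85), Clock (8.20) and Cry1 (3.14) to Arntl (1.18). Neighbours among the first 5 overlapped in their ranges, as did Per3 and Clock, and the other neighbours did not. In Bcas2 cKO Per1 (70.3) and Nr1d1 (64.5) led and overlapped each other. Cry2 (39.4), Dbp (35.4) and Nr1d2 (30.5) followed with overlapping neighbours, then Per2 (17.7), Clock (8.54), Per3 (6.34), Cry1 (5.68) and Arntl (2.80), of which only Per3 and Cry1 overlapped. Per1 thus moved from rank 5 to rank 1 in this order.

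Of 12 other transcription factors of the clock, 9 were tested and none was called by limma (Bhlhe40, Nfil3 or both were called under some settings given at the end), with a median log2 fold change of -0.08. Nfil3, Bhlhe40 and Cipc had the lowest unadjusted limma p (0.017, 0.0073 and 0.048). Voom called 2 of the 9, beside 2282 of all 13723 genes tested. Nfil3, a repressor at D-boxes and itself a target of REV-ERB, held 16.3, 6.91 and 6.15 FPKM in the controls, against 18.01, 26.7 and 16.7 FPKM in Bcas2 cKO. As with Arntl, control library 1 stood near the Bcas2 cKO libraries. Its log2 fold change was 1.08 (SE 0.35, limma adjusted p 0.082), and 1.48 without control library 1 (adjusted p 0.010). Nfil3 was called in 1 of the 6 fits with a library left out.

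Tef, a PAR bZIP relative of Dbp, held 14.6, 26.5 and 26.6 FPKM in the controls, against 18.3, 15.2 and 21.2 FPKM in Bcas2 cKO (log2 fold change -0.26, SE 0.24, limma adjusted p 0.50). From the same list, Npas2, Bhlhe40 and Ciart were chosen after their values were seen. Npas2, which can replace CLOCK, held 1.58, 0.0619 and 0.270 FPKM in control, from 120, 4 and 19 reads, and 0.978, 1.25 and 0.653 FPKM in Bcas2 cKO, and was below the filter. Like Arntl, its partner, it was lowest in control libraries 3 and 4.

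Bhlhe40, an E-box repressor that is also quickly induced by stimuli, held 4.97, 10.6 and 8.46 FPKM in the controls, against 13.96, 17.2 and 13.97 FPKM in Bcas2 cKO. It followed Per1 rather than Arntl, with control library 1 lowest (log2 fold change 0.88, SE 0.23, limma adjusted p 0.0501). Ciart, another repressor of the loop, held 2.59, 8.75 and 5.15 FPKM in the controls, against 6.997, 9.50 and 9.23 FPKM in Bcas2 cKO (limma adjusted p 0.22). Rora, a nuclear receptor gene whose product activates Arntl, held 5.16 ± 0.505 FPKM in the controls and 4.04 ± 0.952 FPKM in the knockout libraries (SD, n = 3 each; limma adjusted p 0.22).

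**Figure D4:**
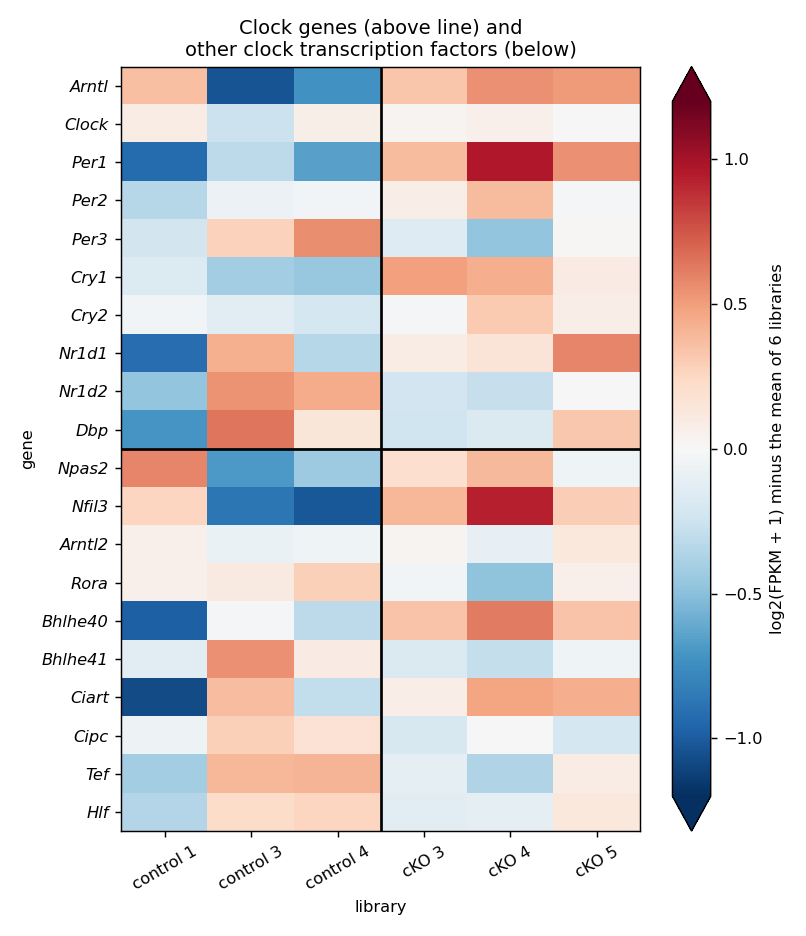
Log2(FPKM + 1) minus the mean of the 6 libraries (colour) for the clock genes (above the line) and 10 of the other clock transcription factors (below), by library. Arntl, Npas2 and Nfil3 are low in control libraries 3 and 4, while Per3, Nr1d2, Dbp and Tef are high there and low in control library 1.

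Of 32 kinases, ubiquitin ligase parts and cofactors, 31 were tested, 2 rose and none fell, 6.45% against 14.5% of all genes, with a median log2 fold change of -0.03. Without overlap, 6 of the 32 were higher and 4 lower in Bcas2 cKO (16.8% and 21.1% of all genes tested). Csnk1e, a casein kinase that marks PER proteins for breakdown, rose from 4.91 ± 0.245 to 6.32 ± 0.0538 FPKM (SD, n = 3 each; log2 fold change 0.31, limma adjusted p 0.031). Crebbp, a histone acetyltransferase that serves CLOCK and CREB, rose from 5.28 ± 0.533 to 7.04 ± 0.258 FPKM (0.36, limma adjusted p 0.037). When libraries were left out in turn, each of these calls was lost in 5 of 6 fits.

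Of 11 genes known to cycle in several tissues, 5 rose and none fell, against 6.97% and 7.55% of all genes tested, with a median log2 fold change of 0.37 beside -0.03 for all genes. Noct, a phosphatase of nicotinamide dinucleotides also called nocturnin, rose from 4.61 ± 0.754 to 11.3 ± 3.92 FPKM (SD, n = 3 each; log2 fold change 1.10, limma adjusted p 0.021). Klf10 rose by 0.89, Usp2, a ubiquitin protease, by 0.67 and Id2 by 0.66; the fifth was Rbm3, a cold-induced RNA-binding protein (0.51), named beyond the rule. When control library 1, 3 or 4 was left out the count was 4, 4 and 0, and when Bcas2 cKO library 3, 4 or 5 was left out it was 3, 1 and 2. Cirbp, a second cold-induced RNA-binding protein gene, was higher without overlap and did not pass (0.37, limma adjusted p 0.069). Klf10 and Id2 are also known as genes induced quickly by extracellular signals.

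Per1 is also known as an immediate early, CREB-induced and glucocorticoid-induced gene. All gene lists here were chosen with earlier results of these data known, so their counts are not independent of these data. Of 23 immediate early and CREB-induced genes, 22 were tested and 21 rose, and all 23 were higher in every Bcas2 cKO library than in any control library; over all genes tested, 6.97% rose and 16.8% were higher without overlap. They took 0.282, 0.666 and 0.682% of reads in control libraries 1, 3 and 4 and 1.95, 2.37 and 2.17% in Bcas2 cKO libraries 3, 4 and 5. Bcas2 cKO library 4 was thus the highest and control library 1 the lowest, as for Per1. Control libraries 3 and 4 came in the opposite order for Per1 (35.4 and 27.8 FPKM). On the log2(FPKM + 1) scale the changes were largest for Arc (3.93), Nr4a1 (2.58), Npas4 (2.52) and Socs3 (2.48); by the ratio of mean FPKM, Egr2 (8.38), chosen after its value was seen, came after Arc (16.6) and before Nr4a1 (5.52). The call of Npas4 held in 2 of the 6 fits with a library left out, and those of Arc, Nr4a1 and Socs3 in all 6.

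Of 10 tested genes on the list of glucocorticoid-induced genes, 5 rose and none fell (median 0.77), against 6.97% and 7.55% of all genes tested. Without overlap, 7 of the 12 on the list were higher and 1 lower in Bcas2 cKO (16.8% and 21.1% of all genes tested). The rises were Dusp1 (1.94), which is also on the immediate early list, Nfkbia (1.64), Cebpd (1.37), Errfi1 (1.30; called in 2 of 6 fits with a library left out) and Sgk1 (0.84). Fkbp5 and Tsc22d3, which are also on the list of cycling genes, did not pass the test and went opposite ways. Their log2 fold changes were -0.12 and 0.30 (limma adjusted p 0.30 and 0.12). Fkbp5 held 11.9, 12.6 and 11.7 FPKM in the controls, against 11.5, 11.1 and 10.5 FPKM in Bcas2 cKO. Tsc22d3 held 7.78, 7.61 and 6.56 FPKM in the controls, against 8.05, 9.28 and 10.6 FPKM in Bcas2 cKO. The groups did not overlap in either gene. The part of either programme in the rise of Per1 was not tested.

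Outside these lists, the genes most like 3 clock genes over the 6 libraries were sought by Pearson's r of log2(FPKM + 1) among 6894 genes whose mean FPKM reached 5. Most like Per1 were Pim3 (r = 0.999), Srf (0.998) and Mafk (0.996), and 189 genes had an r over 0.95. Most like Dbp were Cfap36 (0.989), Atg12 (0.988) and Eif2b1 (0.981), with 16 over 0.95, and most like Arntl were Pigo (0.991), Hip1r (0.989) and Dpp9 (0.987), with 35. With 6 libraries that share group and depth these values only describe the likeness. Hip1r, for example, held 24.9, 13.9 and 15.9 FPKM in the controls, against 26.8, 27.9 and 25.4 FPKM in Bcas2 cKO, low in the same control libraries as Arntl but over a narrower range.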

How the data were processed

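The authors deposited 1 table of FPKM per gene and library, with gene coordinates and lengths, per the file headers. The genome build was GRCm38 (mm10), per the submitters' processing notes; aligner, counting program and strand use: not given in the sources used here. Trizol RNA and a SMARTER mRNA-Seq kit were used, per the labels' protocols. Columns were matched to labels by name; Bcas2 cKO column 5 matched only its group. FPKM times length gave whole reads (within 0.01 read) for 100% of values, used for depth and for voom. Genes whose mean reached 1 FPKM (13723) were tested on log2(FPKM + 1), a scale that understates changes of low genes, with limma 3.58.1 (trend) in R 4.3.3 over all 6 libraries, Benjamini-Hochberg threshold 0.05. The fit was tested on 5 simulated data sets with the same dispersion for every gene, unlike the real data. It recovered 21.6%, 88.3% and 98.4% of log2 changes of 0.5, 1.0 and 2.0. Of its calls there 8.39% were false, at the threshold of 0.05. All clock genes were named; of other lists, up to 4 called genes, or the 2 most abundant where none was called, and the 3 genes most like Per1, Dbp and Arntl. Members and lists were chosen with earlier results of these data known. Gene positions matched GENCODE M21, and start-site sequences are RefSeq's (GRCm38.p6). Alternatives were other pseudocounts, filters, scalings, variance models, voom, a replicate block and leaving out each library. Tables and figures used Python 3.11.15, pandas 2.3.3 and matplotlib 3.10.9. Some genes of the lists are not reported here by name.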

Additional observations from a re-analysis of the deposited data

How the results depend on the processing

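Of 10 clock genes, 2 were called; the number was 1 with no filter, over genes of at least 5 FPKM (where Cry1 and Arntl are not tested) and with a minimum log2 fold change of 1, 4 with voom (Per1, Per2, Cry1 and Arntl), and 1 to 4 when a library was left out. It was 4 without control library 1, where Arntl and Nr1d2 joined. The sign changed for Dbp (0.092 with voom, and 0.26, 0.01, 0.05 and 0.02 when control library 3 or 4 or Bcas2 cKO library 3 or 4 was left out; -0.60 to 0.26 over all settings, -0.42 to 0.26 with a library left out) and for Clock (-0.051 when control library 3 was left out; -0.051 to 0.21 over all settings, -0.051 to 0.12 with a library left out); neither gene was called in any fit. The labels give both groups the numbers 1, 3 and 4, of which the columns share 3 and 4. Same-numbered libraries had correlations of deviations of -0.149 (number 3) and 0.0453 (number 4), beside -0.129 to 0.118 for differently numbered ones. These values gave no sign that the numbers pair the libraries, but so few cannot exclude it. With a replicate block on 3 and 4, 538 genes were called over the table and 2 clock genes, Cry1 and Arntl (adjusted p 0.033 and 0.029), with Per1 at 1.16 and an adjusted p of 0.073. Over all genes the count of 1993 was 1144 with no filter, 407 with the minimum fold change and 878 to 1950 without a library. Rises made 48.0% of the calls, 75.7% with voom. Bcas2 passed without control library 1 (-0.52, adjusted p 0.049) and ranged from -0.52 to -0.27 over the fits without a library. The other transcription factors had 1 call over genes of at least 5 FPKM, with quantile normalization, with either rescaling and with the block, 2 with library weights and with voom, and 0 to 2 without a library. The kinases and cofactors had 4 with voom, 0 with no filter, with the minimum fold change and with the block, and 0 to 2 without a library. The cycling genes had 2 with no filter, 1 with the minimum fold change, 0 with the block and 0 to 4 without a library. The glucocorticoid list had 3 with no filter and 3 to 6 without a library, and the immediate early list had 14 with no filter, 15 with the block and 13 to 21 without a library. Reads limit Arntl, with 35 in control library 3, and Cry1, with 132.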
